A study of Mus musculus with 13 samples.

Results

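The genes described here are 45 genes of the meninges and of the extracellular matrix, measured in whole brains of mouse embryos with and without the long non-coding RNA Meg3. They were chosen by name, as genes known from meningeal fibroblasts and from fibrillar, network-forming and pericellular matrix. Earlier results of these data were known when they were chosen. Of the 45, 44 had a probe set annotated to that gene alone, and the probe set with the highest mean signal over the 13 arrays was used. The remaining gene, Fbn1, is not analysed here because no probe set in the annotation used names it alone. Of the 44 genes, 42 lay above a filter on low signal (a signal of about 56.9) and were tested together with the other genes above it, 12920 genes in all out of 18193 named ones. Aspn and Twist1 stayed below the filter and were not tested, with signals of 14.9 to 59.5 for Aspn and 11.4 to 73.5 for Twist1.

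The meninges are the layered membranes around the brain, and their fibroblasts are the main makers of collagen at its surface. They lay down fibrillar collagens in the outer layers and a basement membrane of collagen IV, laminin, nidogen and perlecan against the brain, where the endfeet of radial glia are anchored. Meningeal cells also secrete Cxcl12, a chemokine that guides migrating neurons, and retinoic acid, which acts on the developing cortex. Blood vessels share the basement membrane genes, so in whole brain tissue these transcripts come from more than a single compartment.

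Each array held RNA of the whole brain of 1 embryo at embryonic day 18.5. There were 7 Meg3 knock-out embryos and 6 wild-type embryos, all Mus musculus, and they came from 5 litters according to the leading number of each embryo's label. Litter 148 gave knock-out 1, litter 219 gave knock-out 2 with wild types 1 and 2, litter 238 gave knock-outs 3 and 4 with wild type 3, litter 250 gave knock-outs 5 and 6 with wild types 4 and 5, and litter 262 gave knock-out 7 with wild type 6. The strain, the sex, the extent of the deleted segment and the parent that passed on the allele are not given in the sources used here. The labels name no treatment of either group.

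Values are the deposited linear signals of probe sets, and log2 values are log2(signal + 16). The number of arrays limits the precision. Meg3 itself had a signal of 378 ± 106 in knock-out and 4955 ± 1374 in wild-type brains (SD, n = 7 and 6), so its level fitted the genotype labels on every array. All 15 neuron markers and all 12 radial glia and astrocyte markers listed were above the filter. Pairs of arrays correlated at 0.894 to 0.990 over the genes above the filter. The ratio of the 3′ to the 5′ Actb control probe sets, a sign of RNA quality, was 2.92 in wild type 2 and 1.81 in knock-out 1, and it lay between 1.32 and 1.495 in the other 11 arrays. Both embryos of litter 262 stood apart from the other 11 in the genes described here, so the genotype comparison, the levels and the correlations are also given without that litter.

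Promoter sequences are shown for a pair of collagen genes that share a start region and for a fibrillar collagen whose signal varied with theirs. Col4a1 and Col4a2 encode the partner chains of collagen IV and are transcribed on opposite strands from neighbouring starts. The windows run from 250 bases before to 50 bases after each gene's start in RefSeq, on build GRCm38.p6. Col4a1 lies on the minus strand, with its window at chr8:11312777-11313076, and Col4a2 on the plus strand, with its window at chr8:11312555-11312854. The starts, at 11312826 for Col4a1 and 11312805 for Col4a2, are 21 bases apart. By these positions each transcript runs across the other's start, so their first bases overlap. The capitals mark the 78 bases that both windows contain, read on opposite strands.
Col4a1: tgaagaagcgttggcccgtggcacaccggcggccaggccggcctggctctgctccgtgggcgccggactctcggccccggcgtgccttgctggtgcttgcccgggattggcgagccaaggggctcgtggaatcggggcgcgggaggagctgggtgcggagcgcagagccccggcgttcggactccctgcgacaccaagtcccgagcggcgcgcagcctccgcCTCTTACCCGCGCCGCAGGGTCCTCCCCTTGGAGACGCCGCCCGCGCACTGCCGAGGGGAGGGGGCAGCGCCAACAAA
Col4a2: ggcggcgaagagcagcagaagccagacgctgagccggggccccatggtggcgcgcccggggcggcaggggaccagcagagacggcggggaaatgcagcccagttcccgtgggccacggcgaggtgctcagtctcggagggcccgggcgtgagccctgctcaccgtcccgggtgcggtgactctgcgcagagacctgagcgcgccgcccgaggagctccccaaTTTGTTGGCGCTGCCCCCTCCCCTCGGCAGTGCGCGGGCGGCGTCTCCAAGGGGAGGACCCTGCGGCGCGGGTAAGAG
For Col1a2, which encodes the second chain of type I collagen, the window is chr6:4505368-4505667 on the plus strand, and the capitals mark the letters CCAAT on either strand.
Col1a2: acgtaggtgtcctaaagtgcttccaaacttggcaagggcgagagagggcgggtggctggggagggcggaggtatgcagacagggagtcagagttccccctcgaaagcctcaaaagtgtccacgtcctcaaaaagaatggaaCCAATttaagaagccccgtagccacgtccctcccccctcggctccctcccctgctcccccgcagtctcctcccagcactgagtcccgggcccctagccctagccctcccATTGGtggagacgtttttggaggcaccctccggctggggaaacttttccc
This window holds 2 matches, and the match that reads CCAAT on the gene's own strand begins 109 bases before the start. Of the 32851 promoter windows in the RefSeq table, 37.4% hold CCAAT on either strand, and 15 of the 31 members with a window do. The match is thus only a description, and whether it is bound was not tested.

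Loss of Meg3 was compared with its presence to ask whether matrix and meningeal transcripts differ between the genotypes. No member passed the threshold. With limma, 0 of the 42 members had an adjusted p under 0.05, against 3 of 12920 genes (0.0232%), and 0 of 42 had an unadjusted p under 0.05, against 255 genes (1.97%). The smallest unadjusted p among members was 0.0662, and the smallest adjusted p was 1.00. Knock-out and wild-type signals overlapped for all 42 members, whereas they did not overlap for 10 genes of the table (0.0774%). The mean was higher in knock-out brains for 15 members and lower for 27, and over all genes it was higher for 65.5%. The median log2 change of the members was -0.04, beside 0.04 for all genes, and single members ranged from -0.35 to 0.30. The split depends on how arrays are scaled. It was 10 higher and 32 lower after quantile normalization, with a member median of -0.12 and an all-gene median of -0.03, and 4 higher and 38 lower after median centring, with medians of -0.24 and -0.15.

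**Figure D1:**
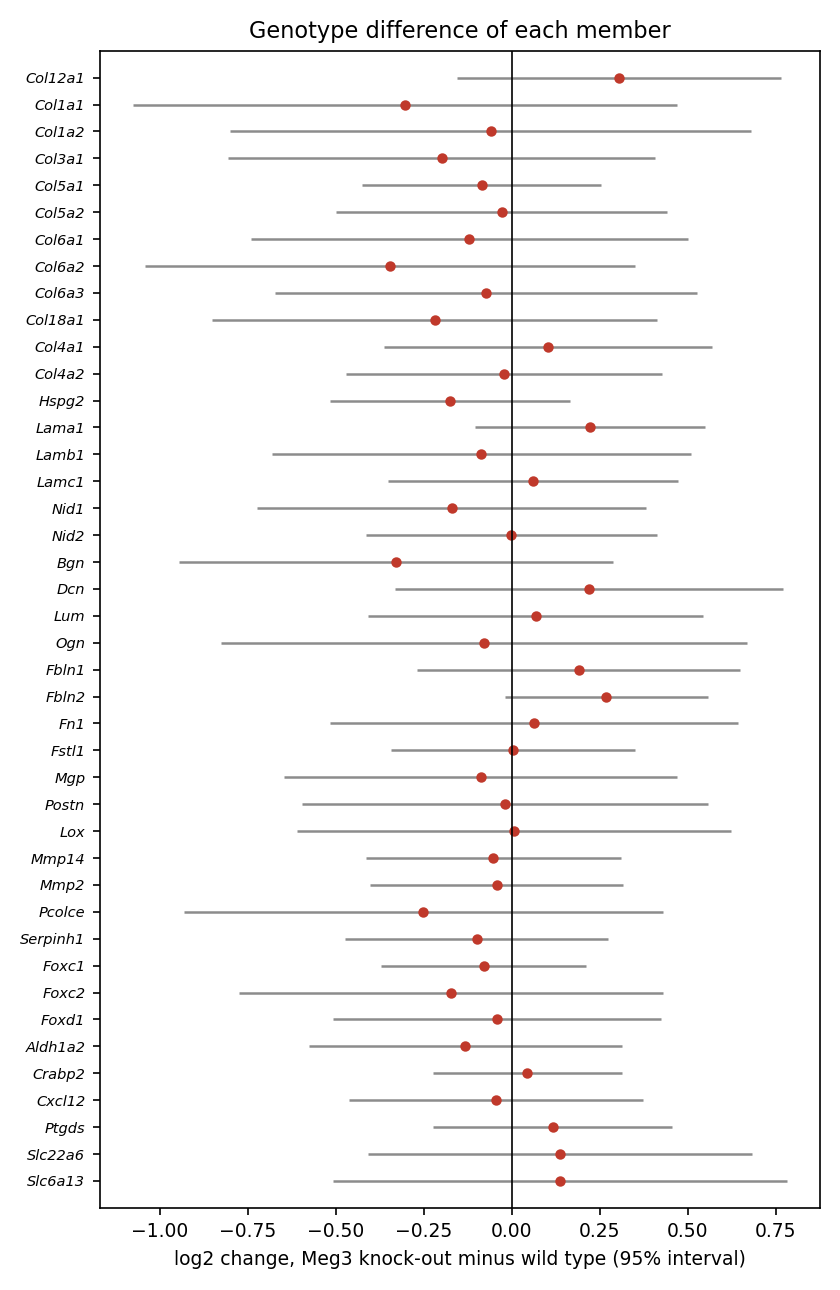
Log2 change (Meg3 knock-out minus wild type) of the 42 tested members on the horizontal axis, with limma's 95% interval as a bar, grouped by role from fibrillar collagens at the top to secreted signals and transporters at the bottom (7 knock-out and 6 wild-type arrays). All 42 intervals hold both signs, and the points run from -0.35 (Col6a2) to 0.30 (Col12a1).

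The median SE of the log2 change was 0.22 for the members and 0.15 for all genes tested. The members also spread more over the 13 arrays, with a median SD of 0.43 log2 units beside 0.27 for all genes, and 39 of 42 lay above the all-gene median. The interval of Col1a1 ran from -1.08 to 0.47 and that of Fbln2 from -0.02 to 0.56.

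Fibrillar collagens form the tensile fibres of the meninges. Of the 6 measured, counting the fibril-associated Col12a1, 5 had a lower and 1 a higher mean in knock-out brains, with a median log2 change of -0.07. Col1a1, the main chain of type I collagen, had signals of 672, 1348, 1225, 1256, 1257, 1532 and 317 in knock-outs 1 to 7, against 1516, 887, 2065, 1257, 1703 and 534 in wild types 1 to 6. The lowest value of each group came from litter 262, and the rest overlapped. The log2 change was -0.30 ± 0.36 SE (limma adjusted p = 1.00, exact permutation p = 0.496). Its partner chain Col1a2 had signals of 2238, 4494, 4005, 3717, 4046, 4211 and 1049 in knock-out brains, against 4034, 3056, 5288, 3135, 3983 and 1370.0 in wild-type brains. Its change was -0.06 ± 0.35 SE with an exact permutation p of 0.879. Col3a1, the type III chain of loose connective tissue, had a lowest, median and highest signal of 1365, 3807 and 4505 in knock-out and 1753, 4326 and 5609 in wild-type brains. Its change was -0.20 ± 0.29 SE, with an exact permutation p of 0.522.

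Col5a1 and Col5a2 encode type V chains, which start and limit fibril growth. Col5a1 lay between 206 and 385 in knock-out and between 225 and 428 in wild-type brains. Col5a2 lay between 387 and 949.9 in knock-out and between 367 and 996 in wild-type brains. Col12a1, a fibril-associated collagen, had the highest point estimate of all members, 0.30 ± 0.22 SE, with an exact permutation p of 0.223. Its signal was 113 to 279.8 in knock-out and 105 to 266 in wild-type brains. In litter 219 alone its log2 difference was 1.12, while it was -0.30 in litter 238, 0.08 in litter 250 and 0.08 in litter 262.

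Collagen VI forms beaded microfibrils around cells from 3 chains, and all 3 had lower means in knock-out brains, with a median of -0.12. Col6a2 had the lowest point estimate of any member. Its signals were 535, 1152, 828, 742, 1041, 840.1 and 252 in knock-outs 1 to 7, against 1111, 818, 1378, 864, 1184 and 407 in wild types 1 to 6. The groups overlapped over most of their range. The log2 change was -0.35 ± 0.33 SE (limma adjusted p = 1.00, exact permutation p = 0.383), and within litters it was 0.27 in 219, -0.80 in 238, -0.11 in 250 and -0.66 in 262. Col6a1 lay between 220.2 and 755 in knock-out and between 297 and 979 in wild-type brains. Col6a3 lay between 234 and 732 in knock-out and between 221 and 841 in wild-type brains.

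Basement membrane genes gave 3 higher and 6 lower means, with a median change of -0.02. Col4a1 had signals of 3331, 4171, 3607, 3359.7, 4371, 4418 and 1876 in knock-out brains, against 4209, 3187, 3923, 3484, 3534 and 1760.4 in wild-type brains. Its change was 0.10 ± 0.22 SE (exact permutation p = 0.5997), and Col4a2, read from the shared start region shown above, stood at -0.02 ± 0.21 SE. Lama1, the laminin alpha chain of the embryonic pial basement membrane, had signals of 159 to 258 in knock-out and 122 to 234 in wild-type brains. That is a change of 0.22 ± 0.15 SE with an exact permutation p of 0.189, and the sign was the same in the 4 litters that held both genotypes (0.63, 0.13, 0.01 and 0.23 in litters 219, 238, 250 and 262). Lamb1 and Lamc1, the chains that pair with it, stood at -0.09 ± 0.28 SE and 0.06 ± 0.19 SE. Hspg2, which encodes perlecan, stood at -0.18 ± 0.16 SE, with signals of 447 to 770.4 in knock-out and 499 to 805 in wild-type brains. Nid1 and Nid2, the nidogens that link laminin to collagen IV, stood at -0.17 ± 0.26 SE and -0.00 ± 0.19 SE. Col18a1, whose C-terminal fragment is endostatin, stood at -0.22 ± 0.30 SE.

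Small leucine-rich proteoglycans bind and space collagen fibrils, and 2 of the 4 tested had higher and 2 lower means. Bgn, biglycan, had the lowest estimate among them, -0.33 ± 0.29 SE (exact permutation p = 0.364), with signals of 374 to 1503 in knock-out and 739 to 1821 in wild-type brains. Dcn, decorin, stood at 0.22 ± 0.26 SE with 715 to 2012 in knock-out and 607 to 1685 in wild-type brains, and Lum, lumican, at 0.07 ± 0.22 SE. Ogn, osteoglycin, had the largest ratio of highest to lowest signal among the members, with 319, 781, 659, 449, 606, 474 and 339.9 in knock-outs 1 to 7 against 182, 1263, 701, 652, 604 and 312 in wild types 1 to 6. Its highest and lowest values both belonged to wild-type embryos of litter 219, of which wild type 2, the highest, also had the highest Actb ratio. The change of Ogn was -0.08 ± 0.35 SE, and it was 0.12 with the Actb ratio as a covariate and 0.05 with the mean of its probe sets, with no call in either.

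Matrix glycoproteins gave 4 higher and 2 lower means. Fbln2, fibulin 2, which joins elastic fibres and basement membranes, had the smallest p of any member on the 1 probe set used per gene. Its signals were 298, 311, 205, 173, 257, 261 and 202 in knock-outs 1 to 7, against 197, 173, 227, 217, 197 and 170.4 in wild types 1 to 6. Of the 7 knock-out arrays 4 lay above the highest wild type, and knock-out 4 lay near the bottom of the wild-type range. The change was 0.27 ± 0.14 SE (unadjusted p = 0.0662, limma adjusted p = 1.00, exact permutation p = 0.0752). Its relative Fbln1 stood at 0.19 ± 0.22 SE and Fn1, fibronectin, at 0.06 ± 0.27 SE. Another Fn1 probe set, of lower mean signal, gave 0.54 ± 0.26 SE. Postn, periostin, stood at -0.02 ± 0.27 SE, Mgp, matrix Gla protein, at -0.09 ± 0.26 SE and Fstl1, a secreted follistatin-like protein, at 0.00 ± 0.16 SE.

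Genes that fold, cut or cross-link collagen gave 1 higher and 4 lower means, with a median of -0.05. Pcolce, which speeds removal of the procollagen C-terminus, stood at -0.25 ± 0.32 SE and Serpinh1, the collagen chaperone, at -0.10 ± 0.18 SE. Lox, the collagen cross-linking oxidase, stood at 0.01 ± 0.29 SE. The metalloproteinases Mmp14 and Mmp2, of which the first activates the other, stood at -0.05 ± 0.17 SE and -0.04 ± 0.17 SE.

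Genes that mark meningeal fibroblasts for reasons other than matrix gave no call either. The forkhead factors Foxc1, Foxc2 and Foxd1, which act in meningeal and head mesenchyme development, all had lower means (-0.08 ± 0.14 SE, -0.17 ± 0.28 SE and -0.04 ± 0.22 SE). Foxc1 lay between 238 and 423 in knock-out and between 287 and 419 in wild-type brains. Aldh1a2, the enzyme that makes retinoic acid, stood at -0.13 ± 0.21 SE and Crabp2, which carries retinoic acid to its receptor, at 0.04 ± 0.13 SE. Ptgds, the prostaglandin D synthase of the arachnoid, had signals of 12525 to 16462 in knock-out and 7833 to 18110.4 in wild-type brains, a change of 0.12 ± 0.16 SE (exact permutation p = 0.614). The transporters Slc22a6 and Slc6a13 both stood at 0.14, with SEs of 0.26 and 0.30, and Cxcl12 at -0.05 ± 0.20 SE.

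For 26 of the tested members more than 1 probe set lay above the filter, and in 10 of these the sign of the change differed between probe sets (Col5a1, Cxcl12, Fbln1, Fstl1, Lamb1, Lox, Mmp14, Nid1, Ogn and Serpinh1). Of the 72 member probe sets tested, 0 passed the threshold in limma. The smallest unadjusted limma p among them was 0.0590, for the other Fn1 probe set (0.54 ± 0.26 SE). It was 0.0738 for Fbln2 in the same fit.

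Without litter 262, on 6 knock-out and 5 wild-type arrays, the median SE of the members was 0.15 log2 units, and the changes ran from -0.33 (Col6a2) to 0.33 (Col12a1). With limma 0 of 42 members passed and 0 had an unadjusted p under 0.05, and the smallest was 0.0919, for Fbln2 at 0.27 ± 0.15 SE. Col1a1 stood at -0.27 ± 0.23 SE, Col1a2 at -0.05 ± 0.19 SE, Col3a1 at -0.21 ± 0.13 SE and Col4a1 at 0.08 ± 0.12 SE. Bgn stood at -0.25 ± 0.20 SE, Hspg2 at -0.27 ± 0.17 SE, Lama1 at 0.21 ± 0.15 SE and Ogn at -0.14 ± 0.38 SE. The sign differed from that over 13 arrays for 6 members, Foxd1, Lox, Nid2, Postn, Ptgds and Slc22a6. The largest shift was that of Slc22a6, 0.18 log2 units, to -0.04 ± 0.15 SE. Ptgds stood at -0.00 ± 0.11 SE. The exact permutation p without that litter was 0.0974 for Fbln2, 0.154 for Col6a2 and 0.134 for Col3a1.

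The sign of the genotype difference did not repeat across litters. In litter 219 the mean was higher in knock-out brains for 35 of 42 members and lower for 7, with a median member difference of 0.24. In litter 238 it was higher for 5 and lower for 37, with a median of -0.34. Litter 250 gave 29 higher and 13 lower (0.08), and litter 262 gave 18 higher and 24 lower (-0.12). The all-gene medians in these litters were 0.16, -0.04, 0.03 and -0.03. Without wild type 3 the split over all litters was 27 higher and 15 lower, without knock-out 7 it was 34 and 8, and without wild type 6 it was 5 and 37. Without the whole of litter 262 it was 15 and 27, with a median of -0.05 beside 0.06 for all genes.

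Members moved together from embryo to embryo. For each embryo a matrix level was taken as the median, over the 42 members, of the log2 signal minus that gene's mean over the 13 arrays. It was -0.17, 0.36, 0.10, 0.06, 0.24, 0.20 and -0.77 in knock-outs 1 to 7, against 0.27, -0.02, 0.44, 0.09, 0.22 and -0.73 in wild types 1 to 6. The group means were 0.00 ± 0.38 in knock-out and 0.05 ± 0.41 in wild-type brains (SD, n = 7 and 6). Without litter 262 they were 0.13 ± 0.18 and 0.20 ± 0.17 (SD, n = 6 and 5). The difference between the genotypes was thus smaller than the spread within either. In whole brain RNA, fewer cells of a type and less RNA per cell cannot be told apart, and both would lower this level.

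**Figure D2:**
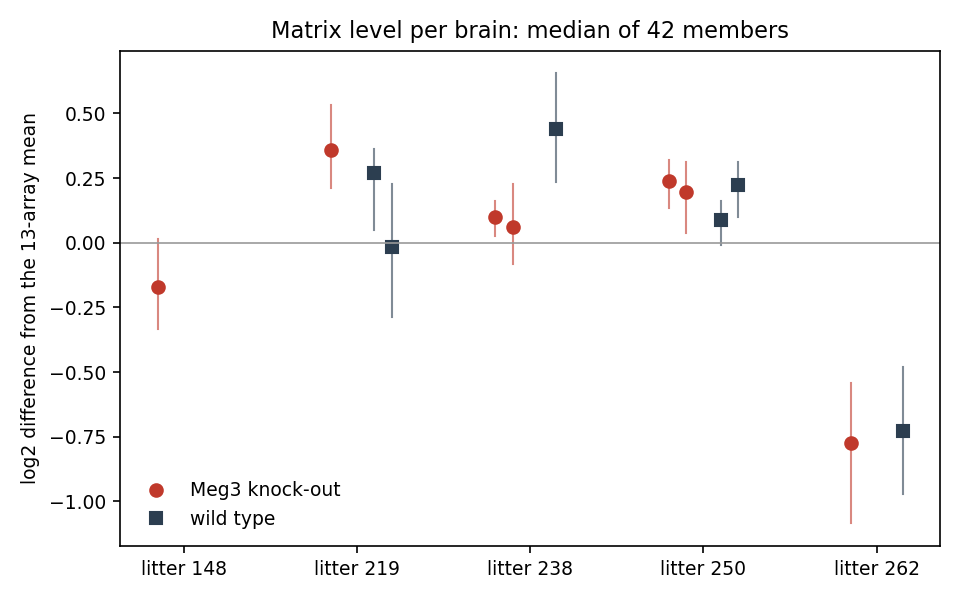
Matrix level of each embryo (median log2 difference of 42 members from their 13-array means, vertical axis) by litter, Meg3 knock-outs as red circles to the left of wild types as dark squares, with bars from the lower to the upper quartile of members. The litter 262 embryos lie at -0.77 and -0.73, below the other 11, which run from -0.17 to 0.44.

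Litter accounted for far more of this spread than genotype did, and litter 262 was the litter that stood apart. The mean level was -0.75 in litter 262 and 0.16 ± 0.17 in the other 11 embryos (SD). Embryos of litters 219, 238 and 250 overlapped, at -0.02 to 0.36, 0.06 to 0.44 and 0.09 to 0.24. Litter 148 held 1 embryo, and the shares were not computed without litter 262. Of the sum of squares of the level over 13 arrays, 89.6% lay between litters and 0.386% between genotypes. The median over members was 76.1% for litter and 1.51% for genotype, and over all genes 42.2% and 2.87%. These shares are descriptions, since 5 litters take up more of any gene's variation than a pair of genotypes does.

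Litter 262 had less signal for nearly the whole set. Knock-out 7 and wild type 6 each had 41 of 42 members below the gene's 13-array mean. Of all genes tested, 64.4% lay below their mean in knock-out 7 and 61.4% in wild type 6. Both of these embryos lay below all 11 others in 30 of the 42 members (71.4%), against 1254 of 12920 genes (9.71%). The mean of litter 262 was lower than that of the other litters for 42 of 42 members, by a median of -0.86 log2 units and a range of -1.63 to -0.05, beside a median of -0.10 for all genes. It was at least 2-fold lower for 18 members, against 130 genes of the table (1.01%). The litter was singled out after its values were seen, and the members were chosen with earlier results of these data known. No test is therefore given for this contrast. The Actb ratios of its arrays were 1.32 in knock-out 7, the lowest of the 13, and 1.39 in wild type 6. How the heads were dissected and how much of the meninges stayed on each brain are not stated in the labels, and the part of dissection was not tested.

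Among the roles, collagen VI had a median difference of -1.41 and the fibrillar collagens one of -1.19, and 8 of these 9 genes lay below every other embryo in both arrays. Col1a2 had 1049 and 1370.0 in litter 262, against 2238 to 5288 in the other 11 embryos, 0.32 times their level on the log2(signal + 16) scale. Col1a1 stood at 0.33 times, with 317 and 534 against 672 to 2065, and Col3a1 at 0.38 times, with 1365 and 1753 against 3142 to 5609. All 3 collagen VI chains were below every other embryo, Col6a1 at 0.38, Col6a2 at 0.36 and Col6a3 at 0.40 times. Pcolce, which acts on these procollagens, had 137 and 242 against 500.4 to 776, or 0.33 times. Fn1, on which collagen fibrils assemble, had 800.4 and 696 against 1396 to 2201, or 0.40 times.

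Basement membrane genes were low as well, 7 of 9 below every other embryo, with a median difference of -0.85. Col4a1 had 1876 and 1760.4 in litter 262, against 3187 to 4418 elsewhere, or 0.49 times. Lamb1 and Nid1 each stood at 0.42 times, and Lamc1 at 0.58 times. Hspg2 differed from this. It had 634 and 499 in litter 262, inside the range of 447 to 805 of the others, and stood at 0.88 times.

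Meningeal markers that are no matrix genes were low in the same embryos. Foxc2 had 101 and 105 against 172 to 424 (0.42 times), and Foxd1 had 82.6 and 141 against 152 to 286 (0.55 times). Foxc1 was less far apart, with 238 and 287 against 279 to 423. Slc22a6, an organic anion transporter, had 213 and 102 against 239 to 439.5, and Cxcl12 had 1029 and 1214 against 1732 to 2589. Ptgds had 12525 and 7833 against 12775 to 18110.4, so that wild type 6 was lower than knock-out 7 for this gene.

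Some members were lower by less, or were lowest in other embryos. Postn had 434 and 509 in litter 262, against 203 to 852 in the others, or 0.96 times. Its lowest values were 203 in wild type 1 and 266 in knock-out 1. Dcn was likewise lowest in wild type 1 and knock-out 1, at 607 and 715, while litter 262 gave 865 and 862, or 0.67 times the others. Ogn had 339.9 and 312 in litter 262, or 0.60 times the others, and 182 in wild type 1. Fbln2 had 202 and 170.4 against 173 to 311, or 0.84 times.

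**Figure D3:**
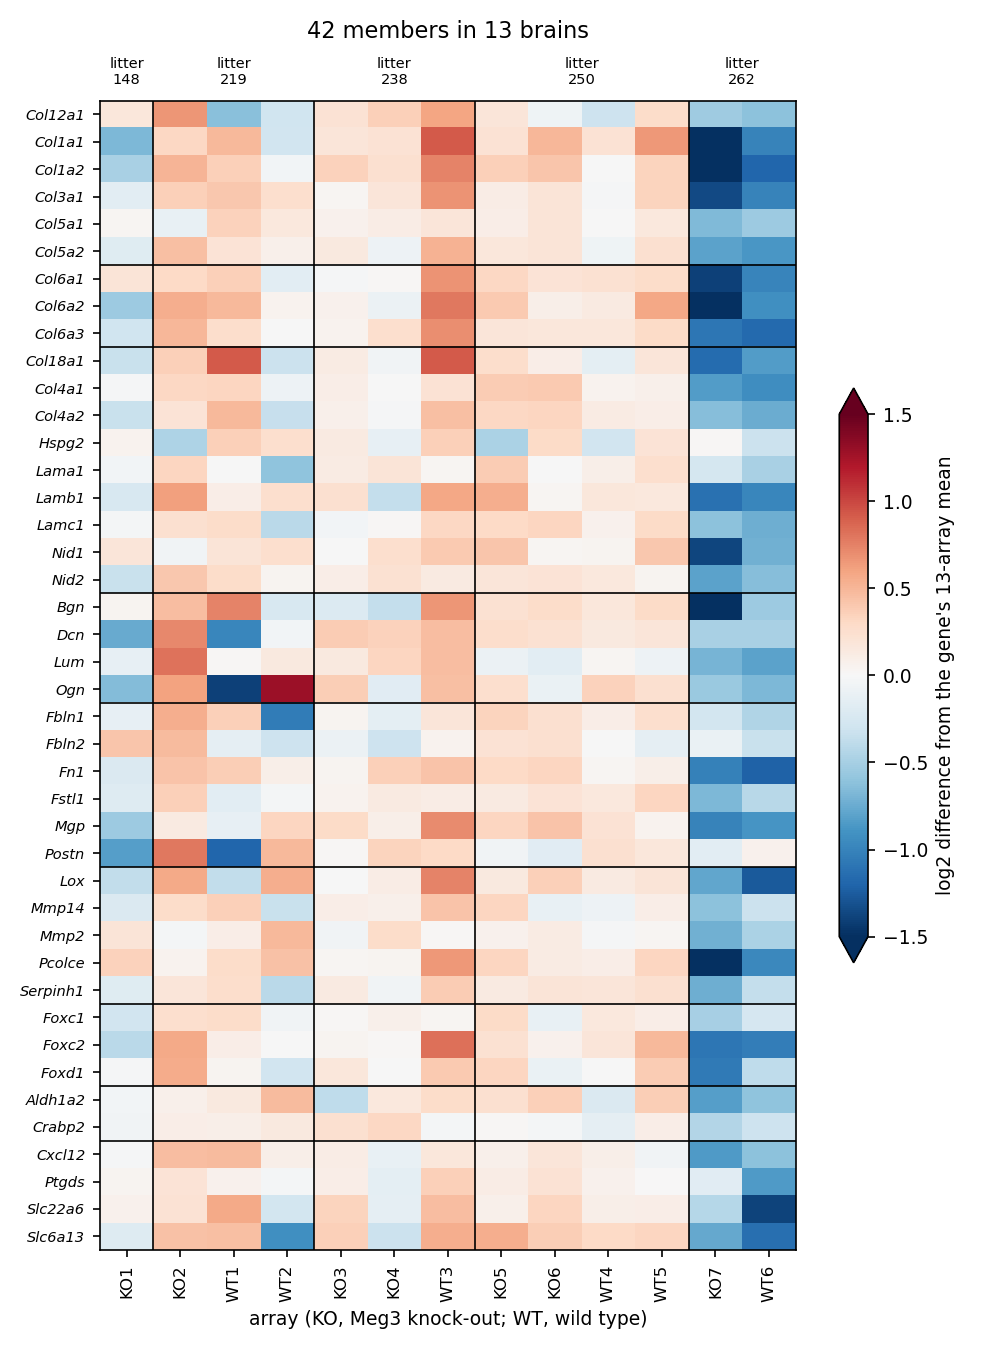
Log2 difference of each tested member (rows, grouped by role) from its own 13-array mean in each array (columns, grouped by litter, Meg3 knock-out left of wild type within a litter), red above and blue below, with colours saturating at 1.5. The columns of litter 262 are blue in nearly all rows, with 41 of 42 members below their mean in each. Over all genes tested the share below the mean was 64.4% in knock-out 7 and 61.4% in wild type 6. Postn, Dcn, Ogn and Col12a1 are low in wild type 1.

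A test of litter with genotype in the model, added after the data were seen, was run across all genes. With limma's F test 0 of the 42 members passed at an adjusted p under 0.05 (the lowest was 0.0637, for Pcolce), against 5 of 12920 genes (0.0387%). At an unadjusted p under 0.05 there were 31 of 42 members (73.8%), against 14.9% of genes. Col1a2 and Col3a1 both had a litter adjusted p of 0.0725 and Fn1 of 0.0643. The count rests on single embryos and on scaling. Without litter 219, whose wild types 1 and 2 differed from each other in Ogn, Postn and Dcn, 32 of 42 members (76.2%) passed, against 10.5% of genes. Without wild type 1 it was 21 members, without wild type 2 it was 11 and without knock-out 1 it was 3. After quantile normalization 10 members passed and after median centring 13, against 52 of 12920 genes in each. With the mean of each gene's probe sets it was 3 members, and with the Actb ratio as a covariate 9. The counts over all genes for these last settings, and for single embryos left out, are not given here.

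Joint variation of members was described by the correlation of each pair of members over arrays, with no test, since the arrays of a litter share a source. Over 13 arrays the median Pearson correlation of the 861 pairs was 0.73, and 76.1% of pairs reached 0.5, beside a median of 0.07 and 15.6% for pairs of all genes tested. Without litter 262 the member median was 0.35, with 34.6% of pairs at 0.5 or more, beside 0.04 and 16.8% for all genes. On residuals from litter and genotype means it was 0.34, beside 0.04. Much of the value over 13 arrays thus rests on that litter.

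Chains that build a common protein, and genes that lie next to each other, were looked at pair by pair. Col1a1 and Col1a2 correlated at 0.97 over 13 arrays and at 0.91 without litter 262. Col4a1 and Col4a2, with their shared start region, gave 0.91 and 0.84, and Col6a2 and Col6a3 gave 0.94 and 0.88. The neighbouring genes Col3a1 and Col5a2 gave 0.96 and 0.84, and the neighbours Col6a2 and Col6a1 gave 0.92 and 0.66. Dcn and Lum, also neighbours, were lower at 0.64 and 0.56. Col1a2 and Fn1 gave 0.95 and 0.85. The nidogens differed, with 0.79 over 13 arrays and -0.24 without litter 262, and so did Lamb1 and Lamc1 with 0.79 and 0.31.

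Dcn, Postn and Ogn encode matrix proteins of loose connective tissue and were low together in wild type 1 and knock-out 1. Postn and Ogn correlated at 0.81 over 13 arrays and 0.88 without litter 262, Dcn and Postn at 0.82 and 0.89, and Dcn and Ogn at 0.76 and 0.71. Without litter 262 the Spearman correlations of these pairs were lower, 0.75, 0.55 and 0.52. Other members shared the pattern, with Postn and Lox at 0.83, Ogn and Lox at 0.79 and Dcn and Fstl1 at 0.84 without litter 262. Without litter 262, their residual correlations with the matrix level were 0.52 for Dcn, 0.25 for Postn and 0.04 for Ogn. By the same measure Col6a2 stood at 0.97, Col1a2 at 0.94 and Col6a3 at 0.93. In all, 13 members reached 0.8 and 10 lay under 0.3, among them Pcolce at 0.07, Nid1 at 0.07 and Mmp2 at -0.59. The level is the median of these same members, so high values are in part built in. The matching counts over all genes were not taken.

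Other genes of the matrix pathway were read from lists chosen by function, and 0 of them passed the threshold between genotypes in limma. Of 22 other collagens 9 had a higher and 13 a lower mean in knock-out brains, with the network-forming Col8a2 at -0.53 ± 0.29 SE and Col8a1 at -0.39 ± 0.24 SE. Of 12 other basement membrane genes 5 were higher and 7 lower. Of 17 other enzymes that modify collagen 10 were higher and 7 lower, and 1, the prolyl hydroxylase P3h2, had an unadjusted p under 0.05 (0.49 ± 0.15 SE, limma unadjusted p = 0.00441 and adjusted p = 1.00). Its signal was 77.7 ± 12.5 in knock-out and 51.8 ± 15.7 in wild-type brains (SD, n = 7 and 6), close to the filter. Of 15 proteases and inhibitors 7 were higher and 8 lower.

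Receptors for matrix gave 14 higher and 6 lower means of 20, with the integrin chain Itga9 at 0.40 ± 0.19 SE (unadjusted p = 0.0498, limma adjusted p = 1.00). Among the other 13 genes of the retinoic acid pathway 5 were higher and 8 lower, with the receptor Rxrg at -0.33 ± 0.22 SE. The Cxcl12 receptors Ackr3 and Cxcr4 stood at -0.23 ± 0.17 SE and -0.04 ± 0.13 SE. Of 13 genes of neural matrix, made by neurons and glia, 11 were higher and 2 lower, with tenascin R, Tnr, at 0.28 ± 0.15 SE. The medians of these lists were -0.04 for other collagens, 0.06 for receptors and 0.10 for neural matrix, beside 0.04 for all genes.

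Markers of other cells in litter 262 were read the same way, as the median log2 difference from the 13-array mean. Other markers of meningeal fibroblasts stood at -0.70 in knock-out 7 and -0.59 in wild type 6, against -0.07 to 0.33 in the other 11 embryos. Of these, 14 of 23 lay below every other embryo in both, against 1254 of all 12920 genes (9.71%). Igf2, which the meninges express strongly, had 3625 and 3335 against 4246 to 10563. Zic1, found in meninges and in cerebellar granule cells, had 5009.5 and 7118 against 5666 to 8680.4. Without litter 262, the median residual correlation of this list's genes with the matrix level was 0.23. It was 0.43 for microglia and macrophage, 0.38 for mural and 0.36 for endothelial markers. For radial glia and astrocyte, neuron and ependymal markers it was 0.33, 0.26 and -0.07.

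Vascular and immune markers were also lower there. Mural cell markers stood at -0.56 and -0.56 against -0.09 to 0.30, with 4 of 12 below every other embryo, beside 9.71% of all genes. Endothelial markers stood at -0.45 and -0.34 against -0.07 to 0.23, with 7 of 20. Microglia and macrophage markers stood at -0.50 and -0.46 against -0.10 to 0.32, with 8 of 14, and Csf1r, the receptor that microglia need to survive, had 841 and 884 against 1295 to 1932. Of the mural cell markers, Vtn had 1321 and 1224 against 1670 to 2772. The pericyte marker Rgs5 did not follow, at 3070.0 and 3152 against 1901 to 3783.

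Neuron markers were not lower in these embryos. They stood at 0.10 and 0.14 in litter 262, against -0.31 to 0.16, and 3 of 15 lay above every other embryo in both, while 0 lay below. Stmn2, a tubulin-binding protein of growing axons, had 24786 and 22812 against 14764 to 18480, and the summed signal of the 15 neuron markers was 133159 and 134985 against 103790 to 125849. Of all 12920 genes, 373 (2.89%) were above every other embryo in both. Radial glia and astrocyte markers stood at -0.31 and -0.02 against -0.14 to 0.18, with 1 of 12 above every other embryo in both and 0 below. Fabp7 had 21724 and 23298 against 16418 to 20717, and Vim had 5026 and 6744 against 4954 to 9270. Ependymal markers stood at 0.03 and 0.19 against -0.94 to 0.54. Choroid plexus markers varied most in litters 238 and 262. They stood at -1.10 in knock-out 4 and 1.27 in wild type 3 of litter 238, and in litter 262 at -1.22 and -0.32, with summed signals of 10181 to 33394 in knock-out and 24444 to 40308 in wild-type brains. What these markers contribute to the matrix level was not tested.

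**Figure D4:**
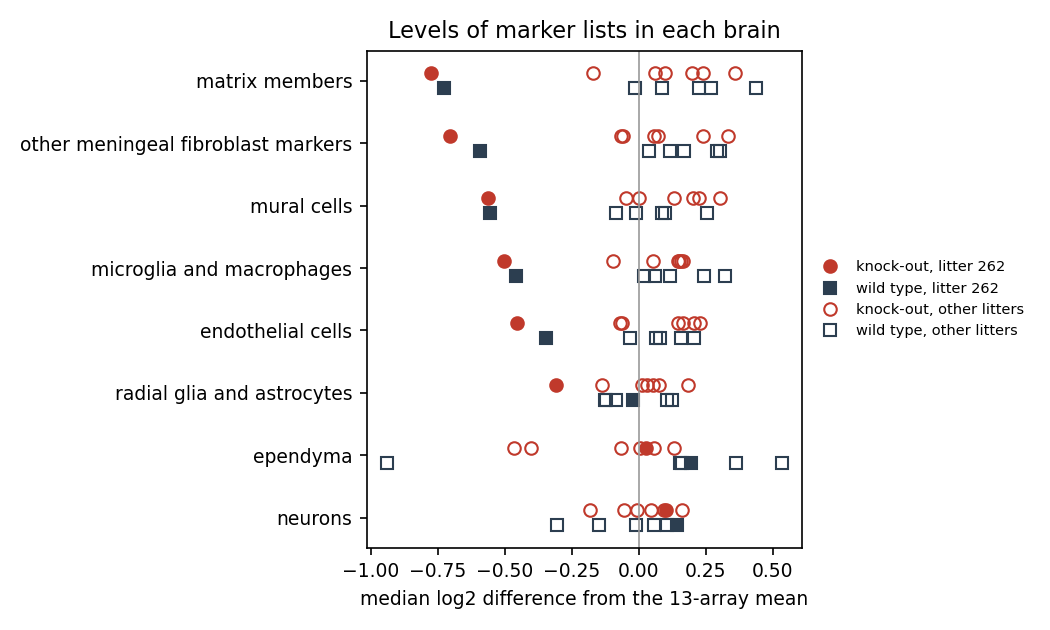
Level of each marker list (median log2 difference from the 13-array mean, horizontal axis) in each embryo, Meg3 knock-outs as red circles above wild types as dark squares, filled for litter 262 and open for the other litters. The filled symbols lie left of the open ones for the matrix members, other meningeal fibroblast, mural, microglial and endothelial markers, and inside their range for ependyma and neurons.

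Markers of tissues around the brain were in part below the filter. Of 12 skeletal muscle markers 5 were above the filter and 7, among them Myog and Ttn, below it, with summed signals of 707 to 1393 in knock-out and 700.3 to 947 in wild-type brains. Of the 15 cartilage and bone markers with a probe set 8 were above the filter, and Ibsp, Dmp1 and Col10a1 were below it. The sums were 1016 to 1556 in knock-out and 1294 to 1656 in wild-type brains. Of 12 epidermal markers 7 were above the filter, with Krt1 at 814 ± 135 in knock-out and 786 ± 131 in wild-type brains (SD, n = 7 and 6), and Krt5, Krt14 and Krt15 were below it. The summed epidermal signal was 2520.0 to 3685 in knock-out and 2661 to 3429.9 in wild-type brains, and the list stood at -0.44 and -0.18 in litter 262, against -0.14 to 0.33 in the other embryos. Of 7 pituitary markers 2 were above the filter. Red cell markers stood at -0.39 and -1.11 in litter 262, against -0.69 to 0.82 elsewhere.

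Outside these lists the genes whose residuals from genotype means were most like the matrix level were taken by their correlation over 13 arrays. Apod, apolipoprotein D, came highest at 0.98, and at 0.91 without litter 262. It had 964 and 991 in litter 262, against 1545 to 2764 in the other embryos. Next came Ccnd1, cyclin D1, at 0.97 and 0.94, Snx19 at 0.97 and 0.85 and Etfb at 0.97 and 0.89. Tgfbr2, a TGF-beta receptor, gave 0.97 and 0.88, and Bmp6, a secreted BMP, 0.97 and 0.89. Epas1, a hypoxia-inducible factor, gave 0.96 and 0.78, Apmap 0.96 and 0.94, and Cnn2 and Cavin1 both 0.96 and 0.87. Aebp1, a collagen-binding matrix protein, gave 0.96 and 0.92, and Sh3pxd2a 0.95 and 0.77. At the other end were the ribosomal protein gene Rps7 at -0.90 and -0.55, Marcks, an actin-regulating kinase substrate, at -0.88 and -0.58, and Eif2ak2, an RNA-activated kinase, at -0.86 and -0.80. Between genotypes Eif2ak2 stood at 0.44 ± 0.15 SE in knock-out over wild-type brains, with an unadjusted p of 0.00918 and a limma adjusted p of 1.00.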

How the data were processed

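The authors deposited linear intensities, 1 per probe set and array. Per the labels' protocols, RNA of 1 brain per array was turned into biotinylated cRNA by the Affymetrix one-cycle procedure. The summary method and scaling are not given in the sources used here. Member signals of wild type 6 carried at most 1 decimal, while those of the other arrays mostly carried more. Whether that array was processed differently was not tested. Of 45037 non-control probe sets, 34945 carried 1 symbol, 932 carried several and 9160 were unnamed.

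Intensities became log2(signal + 16), genes at or below the 40th percentile of mean log2 were dropped, and knock-out was compared with wild type by lmFit and eBayes (limma 3.58.1, R 4.3.3) in a two-sided test, adjusted by Benjamini-Hochberg over 12920 genes. Litter was tested by limma's F test with genotype in the model. Exact permutation tests of single members used all 1716 splits, two-sided, ignoring litter. Genes given array by array or with a permutation p were the 6 members with the smallest p, the 4 with the highest mean and the 4 with the largest spread. For each list the text names genes by smallest p or highest mean signal. Members and lists were chosen with earlier results of these data known. Alternatives covered scaling, pseudocount, filter, probe set, blocks, covariates and leaving out embryos and litters. Embryos are biological replicates per the labels. The replicate numbers did not pair the samples, as given in the closing section.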

Additional observations from a re-analysis of the deposited data

Results flagged for a closer look

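In 5 of 26 groups examined, 1 embryo lay far from the others of its genotype. The gap to its nearest neighbour, as a share of the group's whole range, was above Dixon's critical value (0.568 for 7 samples, 0.625 for 6). Chance flags about 1 in 20 groups, and members that vary together are not independent. Knock-out 7 was such an embryo for 3 genes, Bgn at 374.5 (gap share 0.578), Col3a1 at 1365 (0.697) and Col4a1 at 1876 (0.67). Wild type 6 was such an embryo for 2 genes, Col4a1 at 1760 (0.68) and Ptgds at 7833 (0.681). Both embryos belong to litter 262.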

How the results depend on the processing

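In limma 0 members passed between genotypes under each of the 30 alternatives, with counts at an unadjusted p under 0.05 of 0 to 2. The count of genes lower in knock-out stayed within 1.5 times its value, and the count of genes higher was 1 instead of 0 without litter 238 and ranged from 0 to 1 when single embryos were left out. The median log2 change of the members ranged from -0.24 (median centring) to 0.10. Of 359 alternative values of 12 single members, 24 had the opposite sign, all for members that passed in no setting. Members that differed between litters (0 in the main setting) numbered 10 after quantile normalization and 13 after median centring, against 52 of 12920 genes in each. They numbered 32 without litter 219, against 10.5% of genes. The count was 3 with the mean of probe sets, 9 with the Actb ratio as a covariate, 3 without litter 148 and 0 to 21 without single embryos. For these the counts over all genes are not given here, nor is the member count without litter 262. The cause of these differences in count was not tested. The median pairwise correlation, 0.73, was 0.35 without litter 262, 0.55 as Spearman's rho, 0.34 on litter and genotype residuals and 0.63 (without knock-out 7) to 0.79 (without wild type 2) without single embryos. The level of knock-out 7 ranged from -0.93 to -0.70 and that of wild type 6 from -0.81 to -0.63. Embryos of the same replicate number correlated at 0.40, 0.08, 0.12, -0.20, 0.14 and -0.26 after removing group means, so the numbers were not used to pair them. With the replicate number as a block, which leaves out knock-out 7, 0 members passed, and 34 had higher and 8 lower means. With litter as a fixed block 0 passed, 21 higher and 21 lower. The number of arrays and the spread between litters limit what differences could be found.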
